A study of Mus musculus with 2 samples.

Results

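Cholesterol is a main lipid of myelin, and it is made inside the central nervous system because it does not pass from the blood into the brain. The first stretch of its synthesis joins acetyl-CoA units into HMG-CoA, reduces this to mevalonate, and turns mevalonate through phosphorylation and decarboxylation into the 5-carbon isoprene units that farnesyl pyrophosphate is built from. Farnesyl pyrophosphate (FPP) is a branch point: squalene synthase joins FPP molecules into squalene, the first sterol-committed product, whereas geranylgeranyl pyrophosphate synthase lengthens FPP for protein prenylation. Transcription of most of these enzymes is known to be driven by the sterol-sensing factor SREBP2.

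The 9 genes examined here encode enzymes from acetyl-CoA to squalene and at the FPP branch, namely *Acat2*, *Hmgcs1*, *Mvk*, *Pmvk*, *Mvd*, *Idi1*, *Fdps*, *Fdft1* and *Ggps1*. They were taken by symbol from 23951 symbols present in both expression tables, each gene had 1 row per table, and all 9 were among the 14199 symbols with a level high enough to be compared (1 FPKM in either library), called tested symbols here although no statistical test was possible. The reduction of HMG-CoA to mevalonate was not analysed here. RNA-seq was measured in optic nerve, a white matter tract in active myelination, at P12 in 1 control library (*Tcf7l2* c/+; OLig1-cre) and 1 mutant library (*Tcf7l2* c/c; OLig1-cre, called *Tcf7l2*ΔHMG). In both, Cre under *Olig1* control acts mainly in the oligodendrocyte lineage, so the control itself carries 1 floxed allele and Cre, and the recombination removes the exon that encodes the DNA-binding HMG box while a transcript can still be made. Mice were kept on a mixed strain background, and the number of animals behind each library is not given in the sources used here.

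With 1 library per genotype there was no replicate and no test. Values are FPKM, which is a fragment count scaled by transcript length and by library size, each with the interval that Cufflinks gives for sampling within 1 library, which does not cover variation between animals. The bounds of short unnamed rows gave a depth of 27624000 fragments for the control and 39938000 for the mutant library, so that 3 fragments on 1 kb amount to 0.109 and 0.0751 FPKM. Log2 ratios are mutant over control after 0.1 was added to each FPKM. Over the 14199 tested symbols their median was 0.05, and 90% of them lay between −0.83 and 1.18. The gene-level FPKM of *Tcf7l2* was 17.8 in the control and 14.6 in the mutant (log2 ratio −0.28), which does not check the labels, since the row covers the whole gene and not the removed exon alone.

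Promoter windows were matched by symbol in RefSeq (GRCm38.p6) for 7 of the 9 genes, and none was available here for *Fdps* and *Fdft1*. The 3 stretches below lie upstream of the start site and are shown because they belong to the most abundant gene of the group and to the genes that act on mevalonate and its diphosphate, all of which were lower in the mutant library. Bases in annotated exons were left out. Capitals mark the letters of motifs searched on both strands, which were TCACNCCAC (SRE, the element SREBP2 binds), CACGTG (E-box), CCAAT (NFY), GGGCGG (Sp1), CTTTGA (TCF/LEF, the family of Tcf7l2) and ACAANG (SOX). For CCAAT this gives ATTGG on the other strand. The SOX letters can share CTTTG with the TCF/LEF letters when read on the other strand.
Hmgcs1, chr13:119690101-119690350, plus strand: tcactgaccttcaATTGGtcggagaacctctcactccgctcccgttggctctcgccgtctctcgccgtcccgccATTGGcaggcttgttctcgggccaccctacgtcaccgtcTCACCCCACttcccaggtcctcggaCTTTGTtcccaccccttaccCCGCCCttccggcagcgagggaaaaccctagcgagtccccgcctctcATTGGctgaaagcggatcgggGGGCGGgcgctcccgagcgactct
Mvk, chr5:114444074-114444263, plus strand: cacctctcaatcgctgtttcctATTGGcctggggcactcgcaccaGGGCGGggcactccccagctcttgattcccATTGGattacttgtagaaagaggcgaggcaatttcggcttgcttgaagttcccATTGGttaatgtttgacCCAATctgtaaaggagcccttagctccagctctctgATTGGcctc
Mvd, chr8:122443423-122443655, minus strand: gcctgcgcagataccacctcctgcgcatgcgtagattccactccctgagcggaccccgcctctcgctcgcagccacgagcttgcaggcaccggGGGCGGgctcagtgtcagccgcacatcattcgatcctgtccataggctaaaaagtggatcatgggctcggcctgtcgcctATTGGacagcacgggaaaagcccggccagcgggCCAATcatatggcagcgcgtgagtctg

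The genes on the direct route to squalene were lower in the *Tcf7l2*ΔHMG library. All 8 had a log2 ratio below 0, against 45.4% of tested symbols, whereas the branch enzyme gene *Ggps1* had the only ratio above 0, against 54.6%, and fell below 0 when every row was rescaled. Mature oligodendrocyte markers were lower as well, with a median log2 ratio of −1.07, and in bulk tissue fewer oligodendrocytes and less RNA per oligodendrocyte cannot be told apart. A fold change of 1.5, the cutoff the study used for this comparison, was passed by 3 genes (*Fdps*, *Acat2* and *Mvd*), all lower in the mutant, against 8.52% of tested symbols lower and 15.4% higher by that cutoff. The intervals of these 3 were also apart, as for 7.42% of tested symbols that were lower and 13.6% that were higher by that cutoff. None of the 9 passed a fold change of 2, against 3.68% lower and 6.87% higher. The median log2 ratio was −0.50 over the 9 genes and −0.54 over the 8 on the route. Summed over the 9, the level went from 1093 to 739 FPKM and thus decreased by 32.4%. Without regard to size, intervals were apart for 8 of the 9 genes, as for 52.4% of tested symbols.

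**Figure D1:**
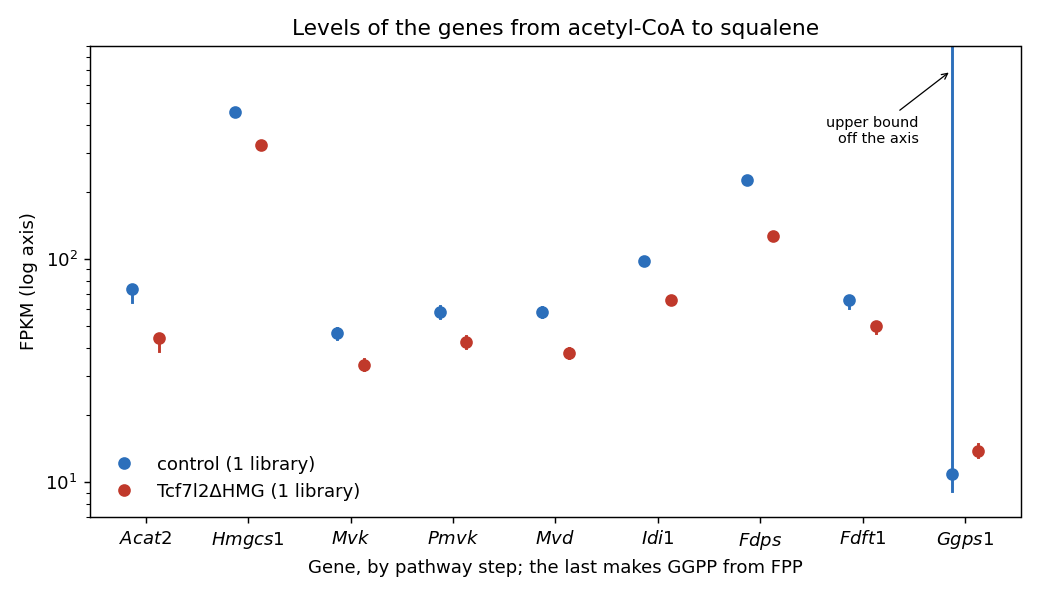
FPKM on a log axis of the 9 genes, by pathway step, in the control library (blue) and the *Tcf7l2*ΔHMG library (red); points are FPKM and lines the Cufflinks interval. *Hmgcs1* and *Fdps* were the highest genes in both libraries, 8 genes were lower in the mutant, and *Ggps1* was lowest, with a control interval whose upper bound of 14062.5 FPKM is off the axis.

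*Acat2* and *Hmgcs1* encode the first enzymes of the pathway. *Acat2* encodes the cytosolic thiolase that joins acetyl-CoA units, and the tables place it on chromosome 17 from 13135908 to 13153591 in mm9, the build named in the submitters' processing notes. It stood at 73.1 FPKM in the control library (interval 64.2 to 69.9) against 44.1 FPKM in the mutant (38.7 to 42.8), a log2 ratio of −0.73 and a 1.66-fold lower level. Its FPKM lay above its own interval in both libraries. Only 5.99% of tested symbols had a lower log2 ratio.

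*Hmgcs1* encodes the cytosolic HMG-CoA synthase and was the most abundant gene of the group, above 99.1% of tested symbols in the control and 98.5% in the mutant. Its level was 457.3 FPKM in the control library (457.8 to 473.5) against 323.6 FPKM in the mutant (324.3 to 333.4), a log2 ratio of −0.50. The FPKM lay just below the interval in both libraries. Its row stands on the unplaced sequence chr13_random from 114527 to 326346 and spans 211820 bases. On the same sequence *Nim1k* and *1700074H08Rik* have 2 rows each, and the row overlaps that of *Zfp131* by 136947 bases. The effect of this placement on the *Hmgcs1* value was not tested.

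The next 3 enzymes turn mevalonate into isopentenyl pyrophosphate. *Mvk*, mevalonate kinase, on chromosome 5 from 114894292 to 114910599, stood at 46.6 FPKM in the control library (44.0 to 49.4) against 33.7 FPKM in the mutant (31.9 to 35.6), a log2 ratio of −0.47. *Pmvk*, phosphomevalonate kinase, on chromosome 3 from 89263040 to 89272931, was at 58.2 FPKM (54.7 to 61.9) and 42.7 FPKM (40.1 to 45.3), a log2 ratio of −0.45. *Mvd*, the diphosphomevalonate decarboxylase, on chromosome 8 from 124957496 to 124967322, was at 58.0 FPKM (55.3 to 61.1) and 37.9 FPKM (36.0 to 39.9), a log2 ratio of −0.61. Among these 3, *Mvd* had the lowest ratio and was the only one past the cutoff, with a 1.53-fold lower level. The ratios that the interval bounds allow, −0.76 to −0.47 for *Mvd* and −0.62 to −0.27 for *Pmvk*, overlap, so that the difference between their ratios lay within the sampling intervals.

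*Idi1*, the isomerase that supplies dimethylallyl pyrophosphate, on chromosome 13 from 8884852 to 8891642, stood at 98.0 FPKM in the control library (94.9 to 102.1) against 65.6 FPKM in the mutant (63.7 to 68.4). Its 1.49-fold lower level (log2 ratio −0.58) stood next to the cutoff without passing it. *Fdps*, which condenses the isoprene units to FPP, on chromosome 3 from 88897510 to 88905889, had the lowest ratio of the group. It was at 225.1 FPKM (218.9 to 234.3) and 127.4 FPKM (124.0 to 132.9), a 1.77-fold lower level and a log2 ratio of −0.82, with 5.08% of tested symbols lower still.

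The genes on either side of the FPP branch had ratios of opposite sign. *Fdft1*, squalene synthase, on chromosome 14 from 63763988 to 63796630, stood at 65.4 FPKM in the control library (60.6 to 65.6) against 50.2 FPKM in the mutant (46.5 to 49.7). Its log2 ratio of −0.38 was the closest to 0 among the 8 genes of the route, and the mutant FPKM lay above its interval. *Ggps1*, on chromosome 13 from 14142938 to 14155670 in the control table, stood at 10.9 FPKM in the control library against 13.9 FPKM in the mutant (12.98 to 14.8), a log2 ratio of 0.34, with 26.2% of tested symbols higher. Its difference was below the cutoff and its sign depended on the scaling, since the ratio was −0.32 after rescaling of all rows, named or not.

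The *Ggps1* rows were also the least secure. The control interval ran from 9.20 to 14062.5 FPKM, so that the intervals of the libraries overlap. The bounds allow a log2 ratio of up to 0.68 and set no usable limit on the lower side. The mutant row began 1178 bases further in than the control row, and a separate unnamed row of 994 bases at 7.16 FPKM (5.06 to 7.36) filled that end in the mutant table only. The gene lies on the minus strand, so this is its 3′ end. Each table held 3 unnamed rows inside the *Ggps1* locus, and the control table held 2 inside *Pmvk*. The part of these rows in the *Ggps1* ratio was not tested. At the depths above, the levels of *Ggps1* correspond to 302 fragments per kb of transcript in the control and 555 in the mutant, against 12631 and 12925 for *Hmgcs1*.

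**Figure D2:**
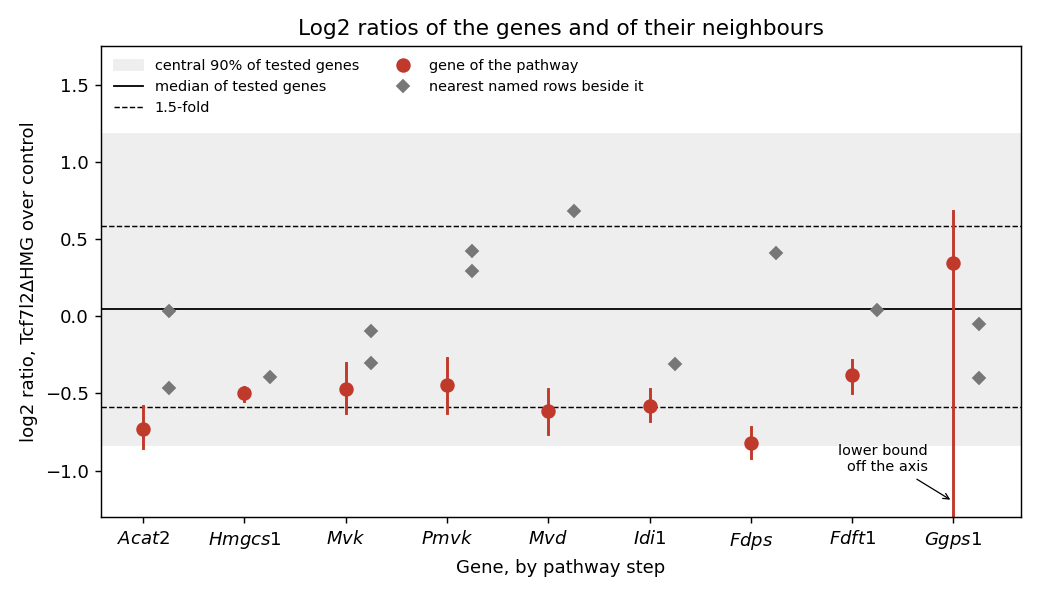
Log2 ratios (mutant over control) of the 9 genes in red, with lines for the range the Cufflinks bounds allow, and of the nearest named rows beside each in grey; the band holds 90% of tested symbols and dashed lines mark 1.5-fold. The 8 genes from *Acat2* to *Fdft1* lie between −0.82 and −0.38, and *Ggps1* lies at 0.34 with a lower bound off the axis, a sign that turned when all rows were rescaled.

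Ratios between genes of the same library do not depend on how the libraries were scaled. FPKM of *Fdps* was 20.6 times that of *Ggps1* in the control and 9.17 times in the mutant. *Fdft1* was at 5.98 times the level of *Ggps1* in the control and 3.61 times in the mutant. Both comparisons rest on the control value of *Ggps1*, whose interval of 9.20 to 14062.5 FPKM sets no usable limit on these shifts. The proportion of the genes that make and use FPP for squalene also differed between the libraries, with *Fdps* at 3.44 times *Fdft1* in the control and 2.54 times in the mutant. For these last genes the ranges allowed by the bounds, −0.92 to −0.72 for *Fdps* and −0.50 to −0.29 for *Fdft1*, did not overlap. The bounds cover only sampling within 1 library, and the mutant FPKM of *Fdft1* lay above its own interval. *Hmgcs1* and *Mvk* kept nearly the same proportion, 9.81 and 9.61.

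By level, the order in the control was *Hmgcs1*, *Fdps*, *Idi1*, *Acat2*, *Fdft1*, *Pmvk*, *Mvd*, *Mvk* and *Ggps1*. The order in the mutant was the same apart from *Acat2* and *Fdft1*, which changed places. Their intervals overlapped in the control, as did those of *Pmvk* and *Mvd*, and neither pair overlapped in the mutant. *Hmgcs1* alone made up 41.8% of the summed FPKM of the 9 genes in the control and 43.8% in the mutant. The share of *Fdps* was 20.6% and 17.2%, and that of *Ggps1* 1.0% and 1.88%. The highest gene stood 41.8 times above the lowest in the control and 23.3 times in the mutant.

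Several of these genes share sequence with other loci, which matters for reads that fit more than 1 place. In GENCODE M21 transcripts, 45.9% of all 50-base words of *Acat2* also occur in *Acat3*, its tandem neighbour. Pseudogenes elsewhere hold 51.1% of the words of *Fdps* (7 pseudogenes), 21.3% of those of *Idi1* (4) and 10.9% of those of *Fdft1* (1). With annotated genes that overlap its own locus counted as well, 86.4% of the words of *Fdps* occur in other genes (8 genes). For *Ggps1* the share with genes elsewhere was 6.79%. *Hmgcs1*, *Mvk*, *Pmvk* and *Mvd* shared no such word with another gene in that annotation. So *Fdps* and *Acat2*, which had the lowest ratios, are also those whose fragments could be split most between loci, and their values are uncertain to that extent. *Acat3* itself was at 39.0 FPKM in the control library against 28.2 FPKM in the mutant, a log2 ratio of −0.47. *Acat2* and *Acat3* summed to 112 and 72.3 FPKM, a log2 ratio of −0.63 and a 1.55-fold lower level, still past the cutoff. The part of read assignment in the *Fdps* value was not tested.

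Paralogs of *Acat2* and *Idi1* gave a view of related enzymes. *Acat1*, the mitochondrial thiolase, stood at 32.2 FPKM in the control library against 31.8 FPKM in the mutant, a log2 ratio of −0.02, beside −0.73 for *Acat2*. *Idi2*, a paralog of *Idi1*, was at 0.0355 FPKM in the control and listed at 0 in the mutant, under the limit that 3 fragments on 1 kb set.

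Genes next to the members gave a view of the surrounding loci. Of the 18 nearest named rows, 13 were tested, with 7 log2 ratios below 0 and 6 above and a median of −0.05. By more than 1.5-fold none was lower and 1 was higher, against 8.52% and 15.4% of tested symbols. Some went the same way as their member. *Zfp131*, whose row overlaps that of *Hmgcs1*, was at −0.40 (beside −0.50). *Wdr37*, 13869 bases from *Idi1*, was at −0.31 (beside −0.58), and *Fam222a*, as far as 107660 bases from *Mvk*, was at −0.30 (beside −0.47). The 4 tested neighbours that lay closest to a member without overlap follow. *Mmab*, whose start lies 255 bases from *Mvk* and which is transcribed away from it, was at 10.97 FPKM in the control library against 10.3 FPKM in the mutant (log2 ratio −0.10, beside −0.47 for *Mvk*). *Rusc1*, 224 bases from *Fdps* on the same strand, was at 5.48 and 7.31 FPKM (log2 ratio 0.41, beside −0.82 for *Fdps*). *Cyba*, 655 bases from *Mvd*, was at 23.5 and 37.8 FPKM (log2 ratio 0.68, beside −0.61 for *Mvd*). *Arid4b*, 380 bases from *Ggps1* and transcribed away from it, was at 11.05 and 8.33 FPKM (log2 ratio −0.40, beside 0.34 for *Ggps1*). These signs are for FPKM as deposited, and that of *Ggps1* turned under rescaling of all rows, in which the median of tested symbols fell by 0.65. The rows of *Ctsb* and *Fdft1* overlap by 773 bases on opposite strands, and strandedness of the libraries is not given in the sources used here, so fragments there cannot be assigned with certainty.

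In the promoter windows, each from 250 bases before to 50 after the start site, the SRE letters occurred in 1 of the 8 windows of 7 genes, that of *Hmgcs1*, where they start 137 bases before the start site. They are found in 1.24% of all 32851 windows. The CCAAT letters were in windows of 6 of the 7 genes, against 37.4% of all windows, and were most frequent in *Mvk*, with 5 copies, and *Hmgcs1*, with 4. The GGGCGG letters were in windows of 5 genes (35.7% of all windows). The SOX letters were in those of *Acat2*, *Hmgcs1* and *Ggps1* (41.3% of all windows), and the TCF/LEF letters in that of *Pmvk* alone among the 7 genes (16.0%). The E-box letters were in none, against 7.15% of all windows. *Ggps1*, whose ratio had the other sign as deposited, had 3 CCAAT copies but no SRE or GGGCGG letters. *Pmvk*, which was lower in the mutant, had no SRE or GGGCGG letters either, so their absence was not particular to *Ggps1*. The promoters of *Fdps*, which had the lowest ratio, and *Fdft1* were not searched, so these counts do not cover them. These are matches of letters and not measured binding, and RefSeq lists 2 start sites for *Pmvk*.

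**Figure D3:**
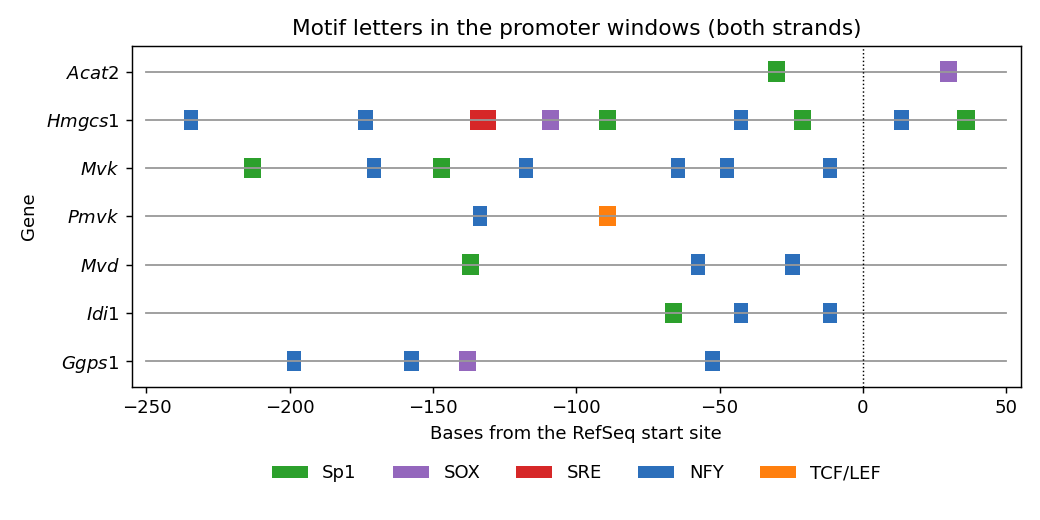
Positions of motif letters on both strands in the promoter windows of 7 genes, in bases from the RefSeq start site, with colour by motif; of the 2 *Pmvk* windows, hits fell in 1 only. The SRE letters appear only in *Hmgcs1*, and CCAAT letters (NFY) in every gene shown except *Acat2*.

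The rest of the pathway was lower too. All 11 tested genes from squalene to cholesterol had a log2 ratio below 0, and 7 were lower by more than 1.5-fold, with a median of −0.68. Among those past the cutoff were *Cyp51* (−0.92), *Hsd17b7* (−0.75), *Msmo1* (−0.75), *Sc5d* (−0.70), *Ebp* (−0.68) and *Sqle* (−0.62), enzymes that turn squalene into sterols and modify the sterol rings. *Tm7sf2*, a sterol reductase, had the ratio closest to 0 (−0.19). A difference between the stretches before and after squalene could not be tested.

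Supply and sensing of the pathway were less uniform. Of 4 genes of acetyl-CoA supply, 3 had a ratio below 0 and *Acss2*, the cytosolic acetyl-CoA synthetase, was lower by more than 1.5-fold (−0.73), whereas *Cs*, mitochondrial citrate synthase, was at 0.03. Of 9 sterol-sensing genes, 4 were below 0 and 5 above, with a median of 0.04, but all 9 were below 0 after rescaling of all rows. *Insig1*, which holds SREBP in the endoplasmic reticulum and is itself a sterol-responsive gene, was at −0.78 and alone passed the cutoff. *Mylip*, which directs the breakdown of the LDL receptor, was highest at 0.52. *Srebf2*, which encodes SREBP2, was at 62.3 FPKM in the control library against 54.3 FPKM in the mutant, a log2 ratio of −0.20, and was named after its value was seen.

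Genes listed for the non-sterol isoprenoid branch did not share a direction in the FPKM as deposited. The list holds enzymes that use FPP or products made from it, and also enzymes that act on proteins already prenylated, such as *Icmt*, *Rce1* and *Zmpste24*. Of 14 listed, *Pdss1* was listed at 0 in both libraries and not tested. Of the 13 tested, 9 had a ratio below 0 (all 13 after rescaling of all rows) and none was lower by more than 1.5-fold, with a median of −0.22. *Fnta*, the shared subunit of the farnesyl and geranylgeranyl transferases, was lowest (−0.54). *Pggt1b*, the catalytic subunit of geranylgeranyl transferase, was highest (0.63) and passed the cutoff.

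**Figure D4:**
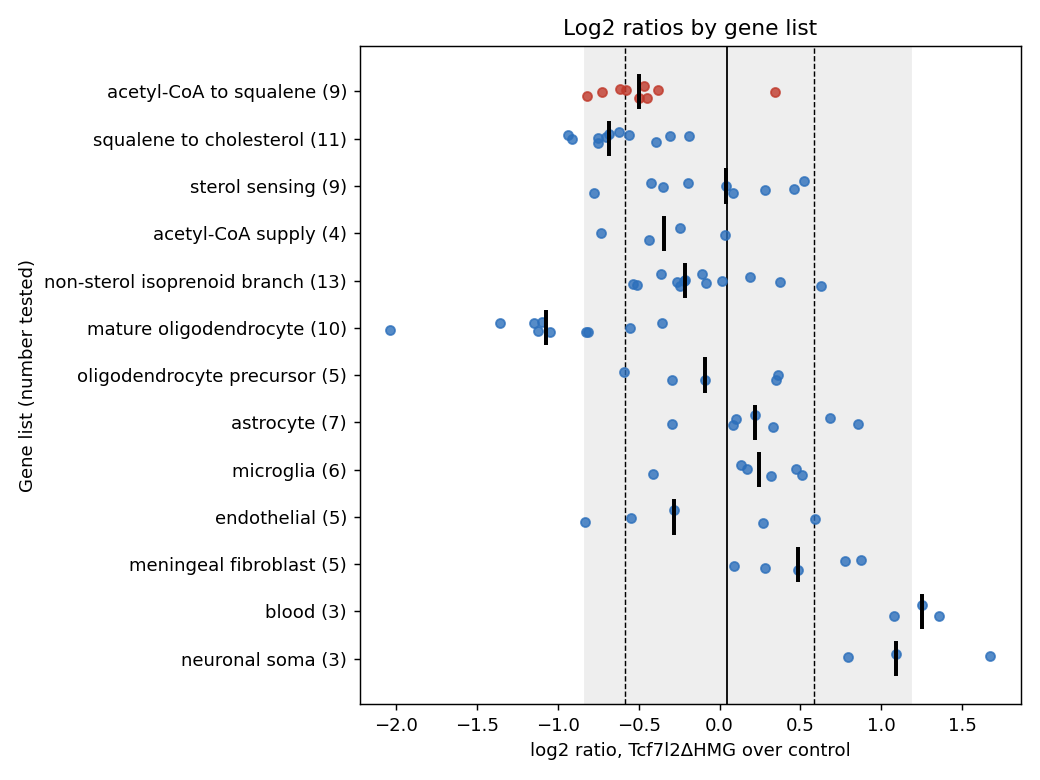
Log2 ratios (mutant over control) of the genes of each list, with a bar at the list's median; the band holds 90% of tested symbols, the solid line is their median and dashed lines mark 1.5-fold. Genes from acetyl-CoA to squalene (median −0.50) lie between those from squalene to cholesterol (−0.68) and the non-sterol branch (−0.22), and mature oligodendrocyte markers are lowest (−1.07); rescaling all rows shifted every list down.

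Cell markers moved in the same libraries. All 10 mature oligodendrocyte markers had a ratio below 0 and 8 were lower by more than 1.5-fold, with a median of −1.07, from *Mobp* (−2.04) to *Aspa* (−0.36). Their summed level was 15021 FPKM in the control library against 6651 FPKM in the mutant. No defining marker was at 0 in either library. Precursor markers had a median of −0.09 over 5 genes, with sums of 366 and 306 FPKM, from *Gpr17* (−0.59) to *Ptprz1* (0.36). Medians were 0.22 over 7 astrocyte markers (*Aqp4* −0.29 to *Gjb6* 0.86, sums 4932 and 5791 FPKM), 0.24 over 6 microglia markers (*Aif1* −0.41 to *Tmem119* 0.51, sums 165 and 208 FPKM) and −0.28 over 5 endothelial markers (*Slco1c1* −0.83 to *Cdh5* 0.59, sums 121 and 103 FPKM). They were 0.49 over 5 meningeal fibroblast markers (*Col3a1* 0.09 to *Igf2* 0.88, sums 1397 and 2195 FPKM), 1.25 over 3 blood genes (*Alas2* 1.08 to *Hba-a1* 1.36, sums 133 and 334 FPKM) and 1.09 over 3 tested genes of neuronal cell bodies (*Snap25* 0.79 to *Syt1* 1.68, sums 7.64 and 15.5 FPKM). The fourth neuronal gene, *Pou4f1*, was below the filter and went the other way, at 0.78 FPKM in the control library against 0.15 FPKM in the mutant. After rescaling of all rows the medians of astrocyte, microglia and meningeal markers were below 0 (−0.45, −0.42 and −0.19), and those of blood and neuronal genes stayed above it (0.58 and 0.45). The part of cell composition in the lower level of the pathway was not tested.

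The scale of the libraries enters the size of every ratio, but only 1 of the scalings moved the ratios far. Median centring, the 75th percentile and rescaling of named rows shifted the median of tested symbols by −0.05, 0.01 and −0.07. They left *Ggps1* at 0.30, 0.35 and 0.27. When every row, named or not, was brought to a total of 1000000, the median of tested symbols shifted by −0.65. The median of the 9 genes then stood at −1.17. That total includes short unnamed rows whose FPKM can lie far above their own bounds. An example is a mutant row inside the *Ggps1* locus at 150.8 FPKM (1.47 to 6.63). The part of such rows in the shift was not tested. Relative to the median of tested symbols, the median of the 9 genes was −0.55 as deposited, and *Ggps1* stood 0.30 above the median of tested symbols. A scaling multiplies a whole library by 1 factor, so the position of a gene relative to that median is nearly fixed by construction, and its stability across the 5 scalings is no support for it.

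**Figure D5:**
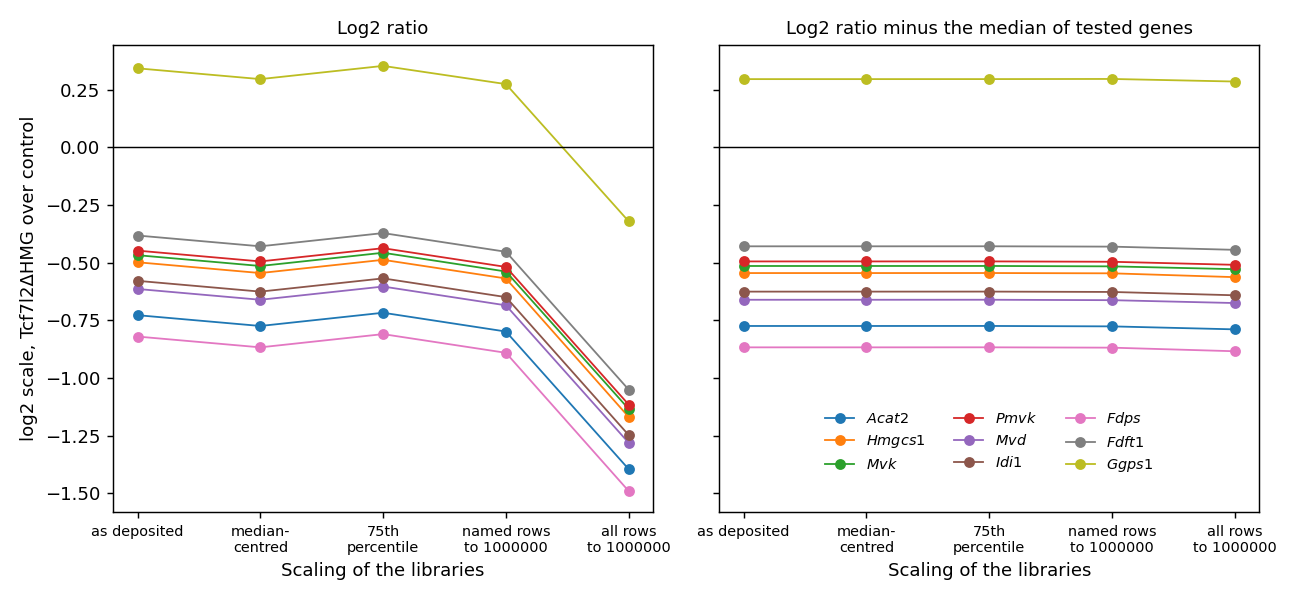
Log2 ratios (mutant over control) of the 9 genes under 5 scalings, as such on the left and after subtraction of the median of tested symbols on the right; lines join the values of 1 gene. Rescaling all rows lowers every gene on the left and takes *Ggps1* from 0.34 to −0.32, whereas the right side, where subtraction of the median cancels a common factor, is nearly level by construction.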

How the data were processed

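Optic nerves at P12 gave 1 control and 1 mutant library. The authors used TopHat with its defaults for mapping and obtained the deposited FPKM and interval bounds with Cufflinks, and the submitters' processing notes name mm9. Versions are not given in the sources used here. FPKM was summed per symbol after comma-merged names were split, so each name of a merged row received its whole FPKM. A symbol was kept as tested where its status was OK in each library and its FPKM reached 1 in either. With 1 library per genotype no statistical test was run, "tested" means only passing this filter, and genes were counted past a fold change of 1.5. Computation was checked on simulated data. Depth was taken as the smallest at which 95% of bounds of unnamed rows shorter than 100 bases were whole fragments within 0.01.

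The genes named were the members, their nearest named rows, paralogs, the lowest and highest gene of each list and, for pathway lists, those past the cutoff. Some genes that this rule names are not reported here. Members, lists and cutoffs were chosen with earlier results of these data known. Alternatives were other pseudocounts, scalings, filters, rows and intervals. Promoter windows came from RefSeq (GRCm38.p6) and transcripts and strands from GENCODE M21, matched by symbol and not by position. Python 3.11.15, numpy 2.4.6, pandas 2.3.3 and matplotlib 3.10.9 were used.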

Additional observations from a re-analysis of the deposited data

How the results depend on the processing

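No paired analysis was possible because there was 1 library per genotype, and no replicate could be left out. The 8 genes of the route stayed below 0 under every pseudocount, scaling and row choice tried. Each had 1 row per library and a level far above the pseudocounts, so pseudocount and row choice could hardly change a sign and are no support. Bringing every row to a total of 1000000 had the largest effect on the median. Then 8 of the 9 genes passed a fold change of 1.5, their median was −1.17 and *Ggps1* was at −0.32. The median of tested symbols was itself at −0.61, past the cutoff, so that count says little about the 9 genes. In all, 8038 tested symbols passed (7398 lower, 640 higher), against 3395 as deposited (1210 lower, 2185 higher). After rescaling of all rows or of named rows the filter of 1 FPKM was applied again, so the sets of tested symbols differ. With a fold change above 2, 0 of the 9 genes and 1497 tested symbols passed. When either library had to reach 5 FPKM, 2179 symbols passed (889 lower). The midpoint of the interval in place of the FPKM gave *Ggps1* a ratio of −8.97, from its control bound of 14062.5 FPKM. Of the other settings, 4 genes passed 1.5-fold after median centring and after rescaling named rows, where *Idi1* was added (−0.63 and −0.65). With midpoints 4 passed as well, but the added gene was *Ggps1*, through that bound, and *Idi1* did not pass (−0.58). In the rest 3 passed. Median centring changed the split of all symbols to 1389 lower and 1965 higher. Rescaling named rows gave 1518 lower and 1906 higher, and midpoints gave 1387 lower and 2289 higher. Summing *Acat2* with *Acat3* was chosen after seeing the data. At these depths the members lay far above the limit of 3 fragments, and the single library per genotype limits the comparison.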
